A study of Rattus norvegicus with 3 samples.

Results

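Lysyl oxidases, matrix metalloproteinases, their tissue inhibitors and matricellular proteins were followed in rat soleus, the slow postural muscle of the calf. The members were 10 genes given by name, Lox, Loxl1, Mmp2, Mmp14, Timp1, Timp2, Postn, Tnc, Sparc and Fn1, and a gene was measured through a probe set annotated with exactly 1 symbol, the brightest where there were several. By this rule 9 of the 10 were found, each with a single probe set, out of 14506 genes that could be named in the same way. Tnc (tenascin C) had no such probe set and was not analysed here.

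All rats were 7 weeks old, of a strain labelled Brown, and all were irradiated continuously over 2 weeks to a total of 50 mSv. The first group, Ct, had irradiation and nothing else. The second, DN, was also denervated, and the third, TS, was also suspended by the tail, which takes the load off the hind limbs. Each group's RNA was a pool from 6 rats, read on 1 Affymetrix Rat Gene 1.0 ST array, so the 3 arrays carry no spread between animals and no test between groups was possible; every difference below is between pools. The series text mentions 2 arrays, whereas 3 were used here. Irradiation is common to all 3 groups, and an unirradiated group was not analysed here.

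The matrix around muscle fibres is built of collagen and glycoproteins and is altered by enzymes secreted into it. Lysyl oxidases oxidise lysines of collagen and elastin so that the fibres become cross-linked. Metalloproteinases such as gelatinase A (Mmp2) and the membrane-bound Mmp14 cut matrix proteins, and the tissue inhibitors of metalloproteinases (TIMPs) block them, although TIMP-2 also takes part in the activation of pro-gelatinase A by MMP-14. Matricellular proteins, such as periostin (Postn), are placed in the matrix mainly to alter how cells adhere and signal, and fibronectin (Fn1) is an adhesive scaffold. In muscle, much of this set is made by fibroblasts and other mononuclear cells between the fibres.

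Values are RMA expression values, taken to be on a log2 scale, on which 0.58 is a 1.5-fold difference, the limit used here for counting. The medians of the arrays, taken across all 29170 probe sets, lay between 6.32 and 6.35. Genes whose 3-array mean fell under 5.72, the 30th percentile, were set aside, which left 10154 genes and all 9 measured members. The member nearest to that limit, Lox in Ct, still lay 2.83 above it, so no member entered through a group in which it was high. RMA can return identical values for a gene on several arrays, and 42.9% of genes compared were equal on Ct and DN and 24.7% on Ct and TS. Equal values are thus no measure of how far a transcript differed. The slow-muscle markers listed for the tissue check, Myh7, Myl2 and Tnni1 among them, were all measured, 10 of 10, with values from 7.58 to 13.99.

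Lox, Timp1 and Postn stood above Ct on both the DN and the TS array, and no member stood 1.5-fold below Ct on either. Against Ct, 3 of 9 members were at least 1.5-fold higher in DN, where 4.93% of all genes compared were, and 3 of 9 were at least 1.5-fold higher in TS, where the share of all genes was 5.89%. In the lower direction there were 0 of 9 members in each comparison, beside 5.53% of all genes in DN and 2.68% in TS. With so few members, 0 of 9 lies close to these shares. At a 2-fold limit Lox and Timp1 remained in both comparisons, 2 of 9, beside 2.24% of all genes in DN and 1.37% in TS. The 9 members are brighter than most genes, and among the 2230 genes within their range of mean brightness 7.22% were at least 1.5-fold higher in DN and 6.64% in TS. The median member difference was 0.35 in DN and 0.18 in TS, beside medians over all genes of 0.00 and 0.02. Both comparisons use the same Ct array, so a Ct value that happened to be low would raise both. The members were chosen with earlier results of these data known, so the contrast with all genes is a description and no independent support.

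**Figure D1:**
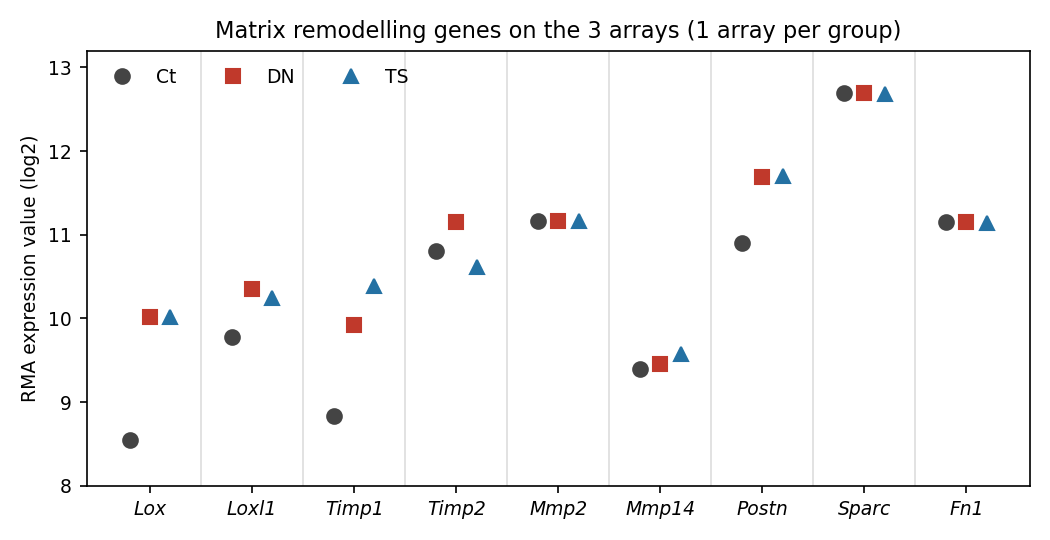
RMA expression value (log2, vertical axis) of each measured member on the Ct (circle), DN (square) and TS (triangle) array, 1 array of pooled RNA per group and no error bars. Lox, Loxl1, Timp1 and Postn read lowest on Ct, Timp2 reads highest on DN and lowest on TS, and Mmp2, Sparc and Fn1 lie level; heights of different genes are not comparable because each has its own probes.

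Promoter sequences are shown for the members with an entry in the RefSeq-derived table (GRCr8) that read higher on both arrays by more than 0.4, namely Timp1, Postn and Loxl1. This cut was used for the display only and is lower than the 1.5-fold limit, which Loxl1 missed in both comparisons. With each array centred on the genes compared, Loxl1 stood at 0.33 in TS. Entries were found for 6 of the 10 members (Loxl1, Timp1, Timp2, Postn, Tnc and Sparc); Lox, Mmp2, Mmp14 and Fn1 had none. Each is the 250 bases before the annotated start, read 5′ to 3′ on the gene's own strand: Timp1 from chrX:3771123-3771372 (minus strand), Postn from chr2:140677811-140678060 (plus strand) and Loxl1 from chr8:67612225-67612474 (minus strand). Capitals mark matches on either strand to the motifs searched.
Timp1: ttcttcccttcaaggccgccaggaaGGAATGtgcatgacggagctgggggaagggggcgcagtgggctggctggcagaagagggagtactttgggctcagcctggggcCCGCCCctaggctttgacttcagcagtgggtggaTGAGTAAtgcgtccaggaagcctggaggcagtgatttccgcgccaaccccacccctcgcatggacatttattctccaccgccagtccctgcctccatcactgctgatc
Postn: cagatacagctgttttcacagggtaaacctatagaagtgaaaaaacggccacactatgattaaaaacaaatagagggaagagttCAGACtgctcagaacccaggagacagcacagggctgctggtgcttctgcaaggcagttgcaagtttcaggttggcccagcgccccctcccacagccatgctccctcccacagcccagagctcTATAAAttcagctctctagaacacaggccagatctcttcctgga
Loxl1: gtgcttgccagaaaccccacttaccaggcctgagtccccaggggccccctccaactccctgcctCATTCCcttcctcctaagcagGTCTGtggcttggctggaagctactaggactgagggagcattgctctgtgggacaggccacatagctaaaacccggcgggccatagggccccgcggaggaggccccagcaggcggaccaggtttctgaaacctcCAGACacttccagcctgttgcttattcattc

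The motifs searched were the AP-1 site TGANTCA, its variant TGAGTAA, which was chosen with the Timp1 promoter in mind, the TEAD (MCAT) site GGAATG, the SMAD core CAGAC, the GC box GGGCGG, the TATA box TATAAA and the CArG box; no match overlapped another in the 3 promoters shown. Timp1 held TGAGTAA from 108 to 102 bases before the start, GGAATG further upstream and 1 GC box, and among all 33469 promoters of the same length these 3 motifs were found in 2.38%, 12.1% and 30.5%. Postn held a TATA box from 44 to 39 bases before the start, found in 12.9% of all promoters, and 1 CAGAC, found in 42.9%. Loxl1 held GGAATG on the opposite strand and CAGAC at 2 places. TGANTCA (6.34% of all promoters) and the CArG box (1.5%) had no match in any of the 6 member promoters. No motif searched was shared by all 3 promoters, and a match describes letters only.

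Among lysyl oxidases, Lox, the founding enzyme of the family, read 8.55 in Ct, 10.02 in DN and 10.02 in TS. Both treated arrays lie well above Ct and give exactly the same value. The difference was 1.47 in each comparison, a 2.77-fold higher signal, and 115 of 10154 genes compared were at least as far above Ct in DN and 41 in TS. Loxl1, a relative needed for the deposition of elastic fibres, read 9.78 in Ct, 10.35 in DN and 10.25 in TS. It was thus higher on both treated arrays, by 0.57 (1.48-fold) and 0.47 (1.38-fold), just short of the 1.5-fold limit in DN. The other 3 members of the enzyme family, named to complete it, were not higher: Loxl2 stood at -0.23 in DN and -0.11 in TS, Loxl4 at -0.12 in both, and Loxl3 was equal on all 3 arrays.

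The tissue inhibitors went different ways. Timp1, a secreted inhibitor of broad range, read 8.83 in Ct, 9.92 in DN and 10.39 in TS. Its differences from Ct were 1.09 in DN (2.13-fold) and 1.56 in TS (2.95-fold), the highest TS difference among the members, and 198 and 37 of all genes compared were at least as high. Timp2, which both inhibits metalloproteinases and helps to activate gelatinase A, read 10.80 in Ct, 11.15 in DN and 10.61 in TS. Ct thus lay between the treated arrays, with DN 0.35 above and TS 0.19 below (-0.19), each short of 1.5-fold. Of the remaining inhibitors of the family, Timp4, the form known from heart and muscle, stood at -0.59 in DN, just past the 1.5-fold limit, and at -0.37 in TS, and Timp3, which binds to the matrix, was equal on all arrays.

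Of the metalloproteinase members only Mmp14 gave unequal values, and its differences were small. Mmp2, gelatinase A, read 11.16 on each of the 3 arrays, so that no difference could be formed. Mmp14, a membrane-type metalloproteinase that activates pro-gelatinase A, read 9.39 in Ct, 9.46 in DN and 9.57 in TS. Its differences were 0.07 and 0.18, which 24.6% and 29.8% of all genes compared equalled or exceeded. The other gelatinase, Mmp9, read 5.37 on all 3 arrays, below the limit for comparison.

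Among matricellular and adhesive proteins only Postn was past the limit. Postn, a secreted protein of tendon sheath, bone surface and healing tissue, read 10.90 in Ct, 11.70 in DN and 11.70 in TS. The treated arrays lie almost level with each other, 0.80 above Ct in both comparisons (1.74-fold in DN, slightly more in TS), and 326 and 260 of all genes compared were at least as high. Sparc, a collagen-binding glycoprotein also called osteonectin, read 12.69 on every array to 2 decimals, with equal values on Ct and DN and a difference of -0.01 in TS. Fn1, fibronectin, read 11.16 in Ct and DN and 11.14 in TS. Under quantile normalization the signs of the TS differences of Sparc and Fn1 turned, to 0.12 and 0.01, and centring each array on the genes compared gave -0.14 and -0.15, so neither has a settled direction.

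**Figure D2:**
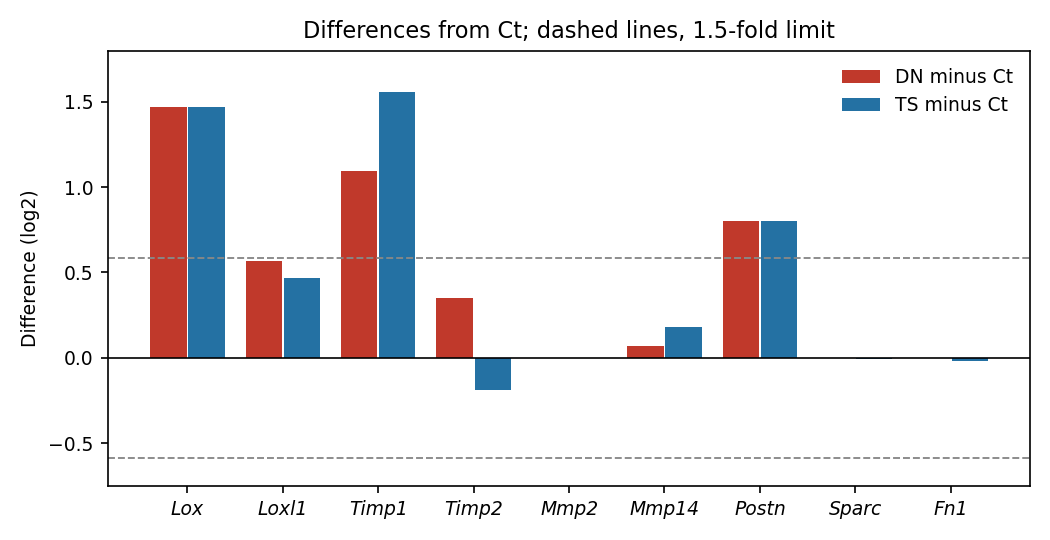
Difference from Ct (log2, vertical axis) of each member in DN (red bars) and TS (blue bars), 1 array per group, with dashed lines at the 1.5-fold limit of 0.58. Lox, Timp1 and Postn pass the upper line in both comparisons, Loxl1 ends just below it in DN, and Timp2 is the one member with a positive DN and a negative TS bar of visible size.

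**Figure D3:**
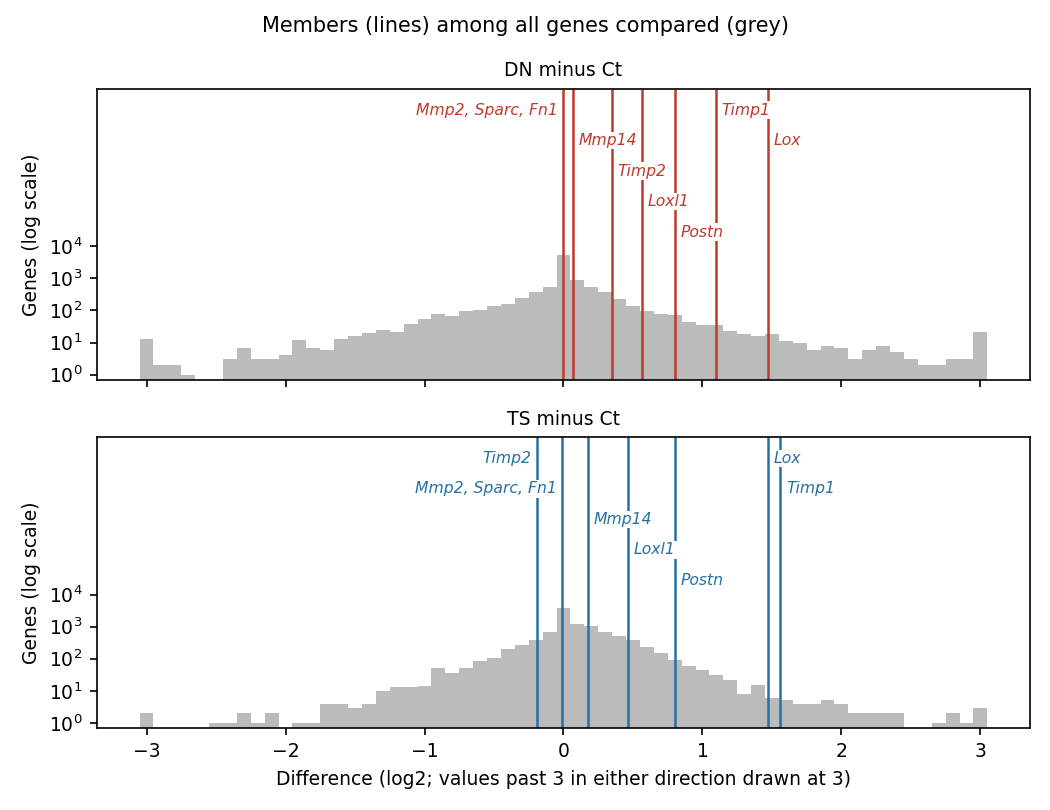
Number of genes (vertical axis, log scale) by difference from Ct (log2, horizontal axis) for all 10154 genes compared (grey), with the members as vertical lines, for DN above and TS below. Lox and Timp1 lie in the upper tail in both panels, with 41 and 37 genes at least as high in TS, while Mmp2, Sparc and Fn1 lie at the central peak of equal values.

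Set directly against each other, DN and TS left every member short of the 1.5-fold limit. None of the 9 was at least 1.5-fold higher in DN than in TS, where 3.20% of all genes compared were, and none at least 1.5-fold lower, where 5.93% were. With so few members, 0 of 9 lies close to these shares and is no trait of the members. The widest gaps were in the inhibitors and ran in opposite directions. Timp2 was higher in DN by 0.54 (1.45-fold), and 3.65% of all genes compared were at least as high. Timp1 was higher in TS, with DN minus TS at -0.47 (1.38-fold), and 9.74% were at least as low. Loxl1 differed by 0.10 and Mmp14 by -0.11, and Lox and Mmp2 were equal. The TS array had a median 0.13 higher than the Ct array over the genes compared, and centring each array on that median, an alternative added after seeing the data, lifted Timp2 to 0.67, past the limit, and took Timp1 to -0.34 and Mmp14 to 0.01.

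The genes most like the 3 members past the limit in both comparisons were found by the distance between their pairs of differences (DN minus Ct and TS minus Ct), over 3 arrays. Nearest to Lox lay Cntn2, a neural adhesion molecule, at 1.41 and 1.40, Cd24, a surface glycoprotein, at 1.42 and 1.37, and Cdk5r1, an activator of the kinase Cdk5, at 1.5 and 1.59. Nearest to Timp1 lay Thrsp, a lipogenic nuclear protein, at 1.23 and 1.45, the uncharacterised 6330403K07Rikl at 0.89 and 1.45, and Cfd, the complement protease adipsin of fat cells, at 1.32 and 1.42. Nearest to Postn lay the chemokine Ccl12 at 0.79 in both, the membrane protein Tmem109 at 0.81 and 0.85, and the oxysterol hydroxylase Cyp7b1 at 0.81 and 0.75. Ccl12 read 5.36 in Ct, under the comparison limit of 5.72, so the size of its difference is less certain.

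Related genes were taken from 8 lists of matrix enzymes, structural proteins, receptors and TGF-beta signalling, which hold 135 entries bright enough to compare. Of these, 20 (14.8%) were at least 1.5-fold higher and 5 (3.70%) lower in DN, and 14 (10.4%) were higher and 7 (5.19%) lower in TS. The shares over all genes compared were 4.93% higher and 5.53% lower in DN, and 5.89% higher and 2.68% lower in TS. The lists, too, were chosen with earlier results of these data known. With each array centred on the genes compared, the counts in DN were the same and those in TS became 8 higher (5.93%) and 7 lower. The same centring took the TS share of all genes compared from 5.89% to 3.52% higher. Up to 4 genes of each list, those farthest from Ct, are named below together with the remaining genes of member families and a few others chosen after their values were seen.

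The enzymes that modify collagen before and during fibre assembly were mostly near Ct. Of 22 compared, 2 were at least 1.5-fold higher in DN and 2 in TS, none was lower, and the median was 0.00 and 0.05. Plod2, the lysyl hydroxylase of collagen telopeptides, whose product is a substrate of lysyl oxidase, read 9.83 in Ct, 11.02 in DN and 10.52 in TS, higher by 1.19 and 0.69. P3h2, a prolyl 3-hydroxylase, was higher by 0.94 and 0.63. P4ha2, a prolyl 4-hydroxylase subunit, stood at 0.36 and 0.55 and Plod3, another lysyl hydroxylase, at 0.00 and 0.50. Bmp1, a protease that cleaves the pro-forms of collagen and of lysyl oxidase, was equal on Ct and DN and 0.09 higher in TS. With the genes compared centred, Plod2 stood at 0.56 and P3h2 at 0.50 in TS, just under the limit, and the list had 0 higher genes there.

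The chains of the main fibrillar collagens, types I and III, which lysyl oxidase acts on, were short of the 1.5-fold limit in both comparisons. Col1a1 was at -0.23 in DN and 0.00 in TS, Col1a2 at -0.08 and 0.02, and Col3a1 equal in DN and at 0.13 in TS. Of 12 collagen genes compared, 2 were at least 1.5-fold higher in DN and none lower, and 1 was higher and 1 lower in TS, with medians of 0.00 and 0.02. Col8a1, a short-chain collagen of vessels, was higher by 0.60 in DN and 1.12 in TS. Col11a1, which nucleates thin fibrils, read 8.29 in Ct, 9.40 in DN and 7.47 in TS, and so lay above Ct in DN by 1.12 and below it in TS at -0.82. Col5a2 stood at 0.10 and 0.34, and Col12a1 at 0.34 in both.

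Of 19 other matrix proteases compared, 1 was at least 1.5-fold lower in DN, 1 higher in TS, and both medians were 0.00. Adamts1, which cleaves large proteoglycans, read 10.17 in Ct, 9.12 in DN and 10.13 in TS, lower by 1.05 in DN (-1.05) and near Ct in TS. Adamts4, an aggrecanase, stood at 0.05 in DN and was higher by 0.75 in TS. Adamts9 stood at -0.21 and 0.50, and Mmp15, another membrane-type metalloproteinase, at -0.42 and 0.49. Another 7 metalloproteinases of the list, Mmp9 included, were too dim to compare. The collagenases Mmp8 and Mmp13 were among them.

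Other protease inhibitors were higher in 3 and lower in 1 of 11 genes in DN and higher in 2 in TS, with medians of 0.00 and 0.04. A2m, alpha-2-macroglobulin, a plasma trap for proteases of all classes, read 5.64 in Ct and 7.40 in both DN and TS, 1.76 higher in each, though its Ct value lay under 5.72. Sfrp2, an antagonist of Wnt signalling and an enhancer of procollagen processing, was higher by 1.87 in DN and stood at 0.27 in TS. Serping1, the inhibitor of complement C1, was higher by 0.64 in DN and stood at 0.05 in TS. Serpina3n, a serine protease inhibitor, stood at -0.55 in DN and was higher by 0.60 in TS.

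The wider matricellular and glycoprotein list held 21 genes compared, of which 3 were at least 1.5-fold higher and 1 lower in DN, and 1 higher and 1 lower in TS, with medians of 0.06 and 0.10. Fbln1, fibulin-1, a partner of fibronectin and elastic fibres, read 8.34 in Ct, 9.61 in DN and 9.07 in TS and was the gene higher in both, by 1.27 and 0.73. Ccn3, a matricellular protein of the family that also holds Ccn2, read 10.32, 9.23 and 8.83 and was lower in both (-1.09 and -1.5). Smoc2, a relative of Sparc, was higher by 0.83 in DN and stood at 0.13 in TS, and Ccn5 was higher by 0.66 and stood at 0.20. Sparcl1, the closest relative of Sparc, stood at 0.03 and -0.37.

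Proteoglycans were at least 1.5-fold higher in 1 and lower in 1 of 13 genes in DN and lower in 3 in TS, with medians of 0.00 in both. Fmod, fibromodulin, a collagen-binding protein of tendon, was lower in both (-1.18 and -0.75). Bgn, biglycan, was higher by 0.60 in DN and stood at 0.44 in TS. Ogn, osteoglycin, stood at 0.55 and -0.70, and Aspn, asporin, at -0.04 and -0.61. Of 20 receptors of matrix proteins, 3 were at least 1.5-fold higher in DN and none lower, and 4 were higher and 1 lower in TS, with medians of -0.09 and 0.02. Itga7, the laminin-binding integrin chain of muscle fibres, was higher by 0.64 and 0.81, and Ddr1, a collagen-binding tyrosine kinase, by 0.70 and 0.69. Itgb8, a chain of an integrin that activates latent TGF-beta, was higher by 0.67 in DN and stood at 0.29 in TS, whereas Itga10, a collagen-binding chain, stood at -0.16 and -0.76. Itga10, the receptor counted as lower in TS, read 5.35 there, under the comparison limit of 5.72. The size of its TS difference is thus less certain. Itga5, the chain of the classical fibronectin receptor, stood at -0.17 in DN and was higher by 0.65 in TS, and its partner Itgb1 stood at 0.24 and 0.28.

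TGF-beta is a known inducer of Lox, Timp1, Postn and collagen genes, and its genes had the highest medians of the 8 lists, 0.36 in DN and 0.24 in TS, beside 0.00 and 0.02 over all genes. Of 17 compared, 6 were at least 1.5-fold higher and 1 lower in DN, and 3 were higher and 1 lower in TS. The ligand Tgfb2 read 8.81 in Ct, 10.54 in DN and 9.84 in TS, higher by 1.73 and 1.03, and Tgfb3 was higher by 0.88 and 0.74, while Tgfb1 stood at 0.20 and 0.34. Ltbp1, which holds latent TGF-beta in the matrix, was higher by 1.64 in DN and stood at 0.46 in TS. Tgif1, a corepressor of SMAD proteins, was higher by 1.01 in DN and stood at 0.02 in TS. Inhba, the activin A subunit, was the gene lower in both (-0.86 and -0.74). Whether these transcripts bear on the members was not tested.

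**Figure D4:**
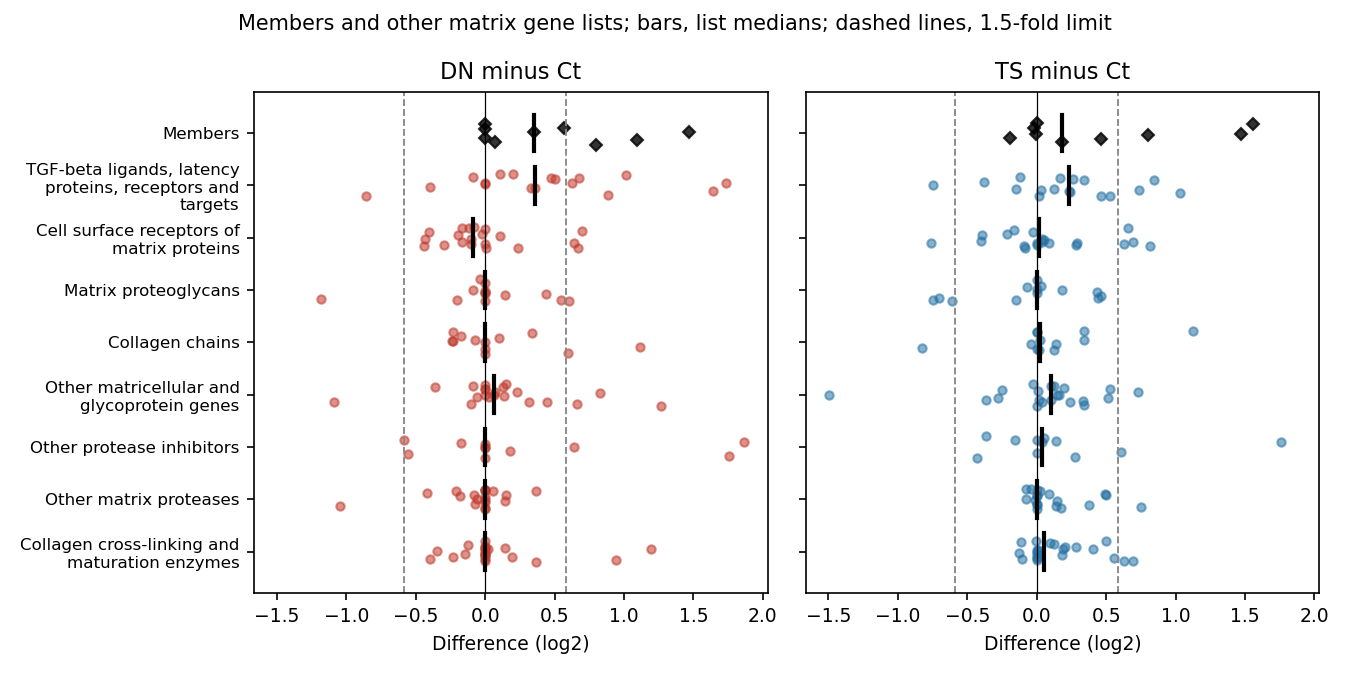
Difference from Ct (log2, horizontal axis) of the 9 members (diamonds) and of the genes compared on 8 related lists (points), for DN at left and TS at right, with list medians as vertical bars and the 1.5-fold limit as dashed lines. The members and the TGF-beta list have the highest medians, 0.35 and 0.36 in DN and 0.18 and 0.24 in TS; the other lists centre near 0.

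In pooled whole-muscle RNA, more cells of a type and more RNA per cell cannot be told apart. Marker genes of the cells that could supply these transcripts are therefore given here. The sums of linear signal add genes whose heights are not comparable, weigh the brightest most and are no measure of cell number. The brightest marker was Gsn for fibroblasts, Fabp4 for adipocytes and Sdc4 for satellite cells. Cd34 counts in both the fibroblast and the satellite cell sum. Fibroblast markers centred on Ct: of 12 compared, 1 was at least 1.5-fold higher in DN and 2 in TS, with medians of 0.00, and their summed linear signal was 19853 in Ct, 20600 in DN and 18369 in TS. Pdgfra, the usual marker of muscle fibroblasts, stood at 0.40 in DN and was higher by 0.81 in TS. Cd34, another marker of this list, stood at -0.33 and -0.55, and Dpp4 at 0.10 and 0.47. Macrophage markers were at least 1.5-fold higher in 0 of 12 genes in DN and 5 of 12 in TS, with medians of 0.09 and 0.56 and summed signals of 7159, 7799 and 10043. With each array centred on the genes compared, 0 of 12 were higher in DN and 2 of 12 in TS, where the median was 0.43. Cd163 and Mrc1, scavenger receptors of tissue macrophages, stood at 0.31 and 0.44 in DN and were higher by 1.17 and 0.95 in TS. Adipocyte markers were higher in 3 of 8 genes in each comparison, with medians of 0.50 and 0.52 and summed signals of 3793, 5294 and 4455.

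Tendon markers were lower in 5 and higher in 2 of 7 genes in DN and lower in 4 in TS, with medians of -1.18 and -0.75 and summed signals of 6370, 5982 and 4682. Tnmd, tenomodulin, stood at -1.61 and -1.22, and Chad, a cartilage and tendon protein, at -1.62 and -1.35. The 2 higher in DN were Scx at 0.62 and Cilp at 0.74, which stood at -0.34 and 0.21 in TS. Smooth muscle and pericyte markers were lower in 3 of 10 genes in DN and in none in TS, with medians of -0.37 and 0.00 and summed signals of 12424, 10886 and 11811. Endothelial markers were lower in 2 of 9 in DN and 1 of 9 in TS, with medians of -0.32 and -0.11 and sums of 7933, 6068 and 7179. Schwann cell markers were higher in 0 of 5 in DN and 1 in TS, with sums of 2884, 2922 and 3508. Satellite cell markers were higher in 1 of 6 in DN, Myf5 at 2.00, and higher in 1 and lower in 1 in TS, with sums of 6029, 6212 and 5297. Muscle fibre markers mostly read lower in both treated pools, although Mb stood at 0.09 in DN and Acta1 was equal on Ct and TS. Of 10 genes listed as slow-muscle markers, Acta1 and Ckm included, 4 were at least 1.5-fold lower in DN and 2 in TS and none higher. Their medians were -0.41 and -0.28 and their summed signals 101351, 75634 and 85274. Myl2, the regulatory light chain of slow myosin, stood at -1.13 and -0.94, Myh7b, a slow myosin heavy chain, at -1.32 and -1.69, and Ckm, muscle creatine kinase, at -1.12 and -0.06. The part of these cell types and fibres in the differences of Lox, Timp1 and Postn was not tested.

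**Figure D5:**
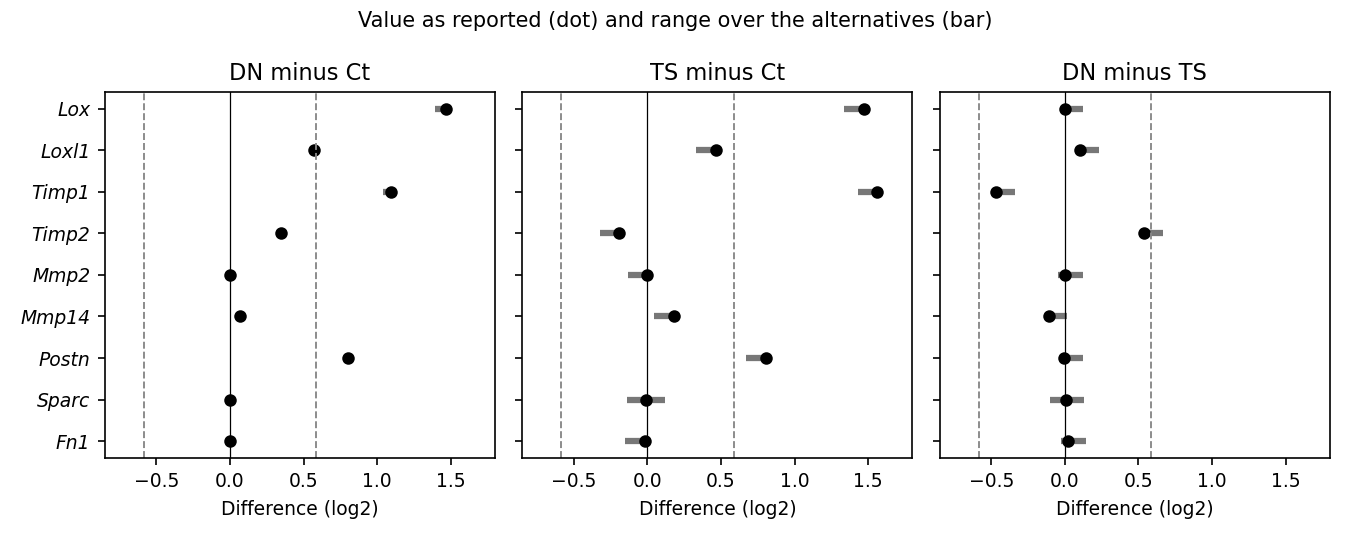
Difference (log2, horizontal axis) of each member as reported (dot) and its lowest to highest value over 9 alternative ways of processing (grey bar), with 1 panel per comparison (each treated group against Ct, then DN against TS) and dashed lines at the 1.5-fold limit. Lox, Timp1 and Postn stay above the limit against Ct in all 9, Postn in TS falling to 0.67 at the lowest, and Timp2 crosses it in DN minus TS under 1 of them.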

How the data were processed

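The deposited expression values were made by the authors with Affymetrix Expression Console by RMA in a core-exon analysis, per the labels' descriptions and per the submitters' processing notes. The log base, the software version, the build and the annotation are not given in the labels used here; the deposited values were taken as log2 from their range, and all folds rest on that assumption. Probe sets were named through the platform annotation (15310 of 29170 had 1 symbol, 323 several, 13537 none); 15279 gene identifiers matched the GRCr8 table and no symbol changed.

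A gene was represented by its brightest probe set, genes under the 30th percentile of mean value (5.72) were left out, and differences of log2 values were counted at 1.5-fold. With 1 array per group no p-value was computed, and the number of arrays limits the precision. Members and lists were chosen with earlier results of these data known. Named genes were the members, up to 4 genes per list with the largest absolute difference from Ct, and the 3 genes nearest to each member past 1.5-fold in both comparisons. The search for nearest genes passed over symbols that start with LOC, RGD, Taar, AABR, Mir or Snor and olfactory or vomeronasal receptors. Family members and Col1a1, Col1a2, Col3a1, Bmp1, Itga5, Itgb1, Tgfb1, Inhba, Sparcl1, Scx, Cilp, Gsn, Fabp4, Mb and Acta1 were added after their values were seen. The counting code was run on simulated data with shifts well past the limit and small assumed noise. That run checks the code only, since noise between pools cannot be estimated from these arrays. Alternatives were 3 normalizations (centring on all probe sets, loess with span 0.3, quantile), 32 added on the linear scale, other choices of probe set, of filter (none or the 50th percentile) and of limit (2-fold). Python 3.11.15, numpy 2.4.6, pandas 2.3.3 and statsmodels 0.14.6 were used.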

Additional observations from a re-analysis of the deposited data

How the results depend on the processing

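Lox, Timp1 and Postn stayed at least 1.5-fold above Ct in both comparisons under all 9 alternatives that give a gene's value, with DN differences of 1.40 to 1.47, 1.04 to 1.10 and 0.78 to 0.80 and TS differences of 1.34 to 1.47, 1.43 to 1.56 and 0.67 to 0.81. Loxl1 in DN (0.55 to 0.58) stayed under the limit. With each array centred on the genes compared, the median member difference was 0.046 in TS against Ct and 0.13 in DN against TS, beside -0.12 and 0.12 over all genes, and 1 member, Timp2, was at least 1.5-fold higher in DN than in TS. Leaving out genes of equal value, also added after seeing the data, gave medians of 0.68 in DN against Ct and 0.32 in TS against Ct, over 6 and 8 members. Each member has 1 probe set and lies above both filters, so the 4 alternatives on probe sets and filters leave its value as it was. Centring lowered every TS difference from Ct by 0.13, which turned the medians of the cross-linking, inhibitor, matricellular, collagen and receptor lists negative along with that of all genes (-0.12). The protease and proteoglycan medians went from 0.00 to -0.13, and that of the TGF-beta list stayed positive at 0.10. Over the members and named genes, 2014 values kept their side of the limit. Those short of it also stayed within 0.1, while those past it were counted whatever the size of their shift. Another 97, short of the limit, moved by more than 0.1, 43 fell short of the limit and 18 passed it. No called value changed sign. No paired analysis was possible because each group has 1 array. Without replicates, nothing here separates a difference between treatments from one between pools or arrays.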
